A study of Mus musculus with 8 samples.

Results

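The 9 liver identity genes described here are Hnf4a, Cebpa, Foxa1, Foxa2, Foxa3, Alb, Afp, Ttr and Apoa1. They were chosen by name, and all 9 were found among 25876 genes named on the array, with 21 of its 232626 probes. The method was array comparative genomic hybridisation, in which test DNA and reference DNA compete for the same probes and the ratio gives the relative copy number. The tested samples were hepatocellular carcinomas (HCC) of male C57BL/6 mice carrying a FEAT transgene (6 tumours), non-tumour liver of a male FEAT transgenic mouse (1 array) and liver of a male wild-type C57BL/6 mouse (1 array). Every test DNA was set against liver DNA of a healthy wild-type male of that strain, aged 6 months. FEAT is another name of Mettl13, a methyltransferase gene, and the labels do not give the promoter of the transgene. The mice were 16, 21, 20, 18.5, 22 and 12 months old for tumours 1 to 6, 13 months for the FEAT normal liver and 6 months for the wild-type liver. Tumour and age cannot be told apart for the 5 tumours of mice older than both non-tumour livers. FEAT line and age cannot be told apart either, as all FEAT mice were 12 to 22 months old and the wild-type mouse 6 months. Tumour 4 came from a mouse with lung metastasis.

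Hepatocytes are set apart from other cells by a small network of transcription factors that bind each other's genes and those of secreted plasma proteins. Hnf4a is a nuclear receptor needed to form and maintain hepatocytes, Cebpa is a leucine zipper factor of differentiated and quiescent hepatocytes, and the Foxa proteins open closed chromatin at liver enhancers in the embryo. Their targets include Alb, the main plasma protein, Afp, its fetal relative that is silenced after birth and often made again in liver tumours, Ttr, a carrier of thyroid hormone, and Apoa1, the main protein of high-density lipoprotein. RNA and protein were not measured here, so the values below describe the DNA at these genes and not their activity.

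The genes lie on 6 chromosomes in the coordinates of the array, with no genome build named by the sources used here. Hnf4a was covered by 4 probes between positions 163293905 and 163312388 of chromosome 2. Foxa2 had 1 probe on the same chromosome, between positions 147783809 and 147783865. Cebpa had 1 probe between positions 32011087 and 32011145 of chromosome 7, and Foxa3 had 3 probes between positions 16696087 and 16704540 of it. The pairs are far apart, with 15.5 Mb between Hnf4a and Foxa2 and 15.3 Mb between Cebpa and Foxa3. Foxa1 had 2 probes between positions 55475915 and 55479732 of chromosome 12. The albumin family genes Alb (2 probes, positions 90432855 to 90443819) and Afp (3 probes, positions 90467079 to 90477669) are neighbours on chromosome 5, only 23.3 kb apart. Ttr had 2 probes between positions 21039230 and 21044639 of chromosome 18, and Apoa1 had 3 between positions 46186920 and 46188063 of chromosome 9. Whether a probe lies in an exon or an intron was not determined here.

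The 21 probes were 46 to 60 bases long with 30% to 46% G and C (median 38.3%, against 36.7% over all probes). None was dim or carried a warning mark on the wild-type array, the only one whose scanner output was used. Each value is the log2 of test over reference signal after subtraction of the array's autosomal median, so that 0 stands for the typical autosomal level. Probe noise, taken from differences between neighbouring probes, had an SD of 0.22 to 0.49 in the tumours (highest in tumour 4), 0.32 in FEAT normal liver and 0.22 in wild-type liver. With 1 to 4 probes a gene, the mean of a gene's own probes is a coarse measure. The level of a gene was therefore also taken as the mean of all 70 to 177 probes within 0.5 Mb of it, here called its window level. The share of tumour cells in a sample is not given in the labels, so no level can be turned into a number of copies.

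The probes of Apoa1, Afp and Alb are shown because single probes of these genes carried the departures described below. They are printed as the scanner output lists them, with the array's coordinates and no strand given, and no base is marked.
Apoa1 probe 1, chr9:46186920-46186969: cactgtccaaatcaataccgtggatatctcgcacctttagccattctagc
Apoa1 probe 2, chr9:46187749-46187794: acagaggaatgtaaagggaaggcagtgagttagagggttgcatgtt
Apoa1 probe 3, chr9:46188015-46188063: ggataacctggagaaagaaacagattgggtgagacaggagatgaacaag
Afp probe 1, chr5:90467079-90467137: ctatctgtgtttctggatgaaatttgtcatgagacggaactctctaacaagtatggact
Afp probe 2, chr5:90472684-90472743: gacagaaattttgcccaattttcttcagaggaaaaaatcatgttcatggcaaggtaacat
Afp probe 3, chr5:90477610-90477669: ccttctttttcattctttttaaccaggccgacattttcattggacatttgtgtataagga
Alb probe 1, chr5:90432855-90432914: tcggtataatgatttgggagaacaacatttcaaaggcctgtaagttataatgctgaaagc
Alb probe 2, chr5:90443760-90443819: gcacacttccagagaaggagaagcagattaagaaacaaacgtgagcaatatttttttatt

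Window levels of the transcription factor genes stayed close to 0 on most arrays, with exceptions at Cebpa, Foxa3 and Foxa1 in single tumours. Hnf4a stood at -0.01, 0.02, 0.04, -0.01, 0.02 and 0.01 in tumours 1 to 6, against -0.04 in FEAT normal liver and -0.03 in wild-type liver. All 6 tumours lay above both non-tumour livers, but the whole range is narrower than 0.1. This was the only member with such an order by window level, which held for 4.95% of all genes. Foxa2, on the same chromosome, stood between -0.04 and 0.04 in the tumours, at -0.01 in FEAT normal liver and at 0.03 in wild-type liver, and the groups overlapped.

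Cebpa and Foxa3 were low in tumour 5. Cebpa stood at -0.01, -0.02, -0.01, -0.15, -0.30 and -0.0033 in tumours 1 to 6, against -0.08 in FEAT normal liver and -0.02 in wild-type liver. Foxa3, a forkhead factor that remains abundant in adult liver, stood at -0.03, -0.05, 0.02, -0.11, -0.30 and -0.06 in tumours 1 to 6, against -0.10 in FEAT normal liver and 0.0019 in wild-type liver. At both genes tumour 5 lay lowest and tumour 4 next, while the other 4 tumours lay above both non-tumour livers at Cebpa and between or above them at Foxa3.

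Foxa1 differed between tumours in both directions. It stood at -0.15, 0.07, 0.11, 0.11, -0.08 and 0.10 in tumours 1 to 6, against 0.06 in each of FEAT normal liver and wild-type liver. Tumours 1 and 5 lay below both non-tumour livers and the other 4 above them.

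Of the secreted proteins, Alb and Afp share 95 window probes, so their windows are a single measurement in effect. The Afp window stood between 0.03 and 0.11 in the tumours, at 0.05 in FEAT normal liver and at 0.06 in wild-type liver. The tumours lay on both sides of the non-tumour livers. The Ttr window stood at 0.08, 0.07, 0.11, 0.27, -0.07 and 0.07 in tumours 1 to 6, against 0.06 in FEAT normal liver and 0.07 in wild-type liver. Tumour 4 was high and tumour 5 low.

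Apoa1 had the lowest window level of the 9 genes. It stood at -0.05, -0.04, 0.04, -0.21, -0.34 and -0.06 in tumours 1 to 6, against -0.01 in each of FEAT normal liver and wild-type liver. Tumours 4 and 5 were low, tumour 3 lay above both non-tumour livers, and the other 3 lay slightly below them.

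**Figure D1:**
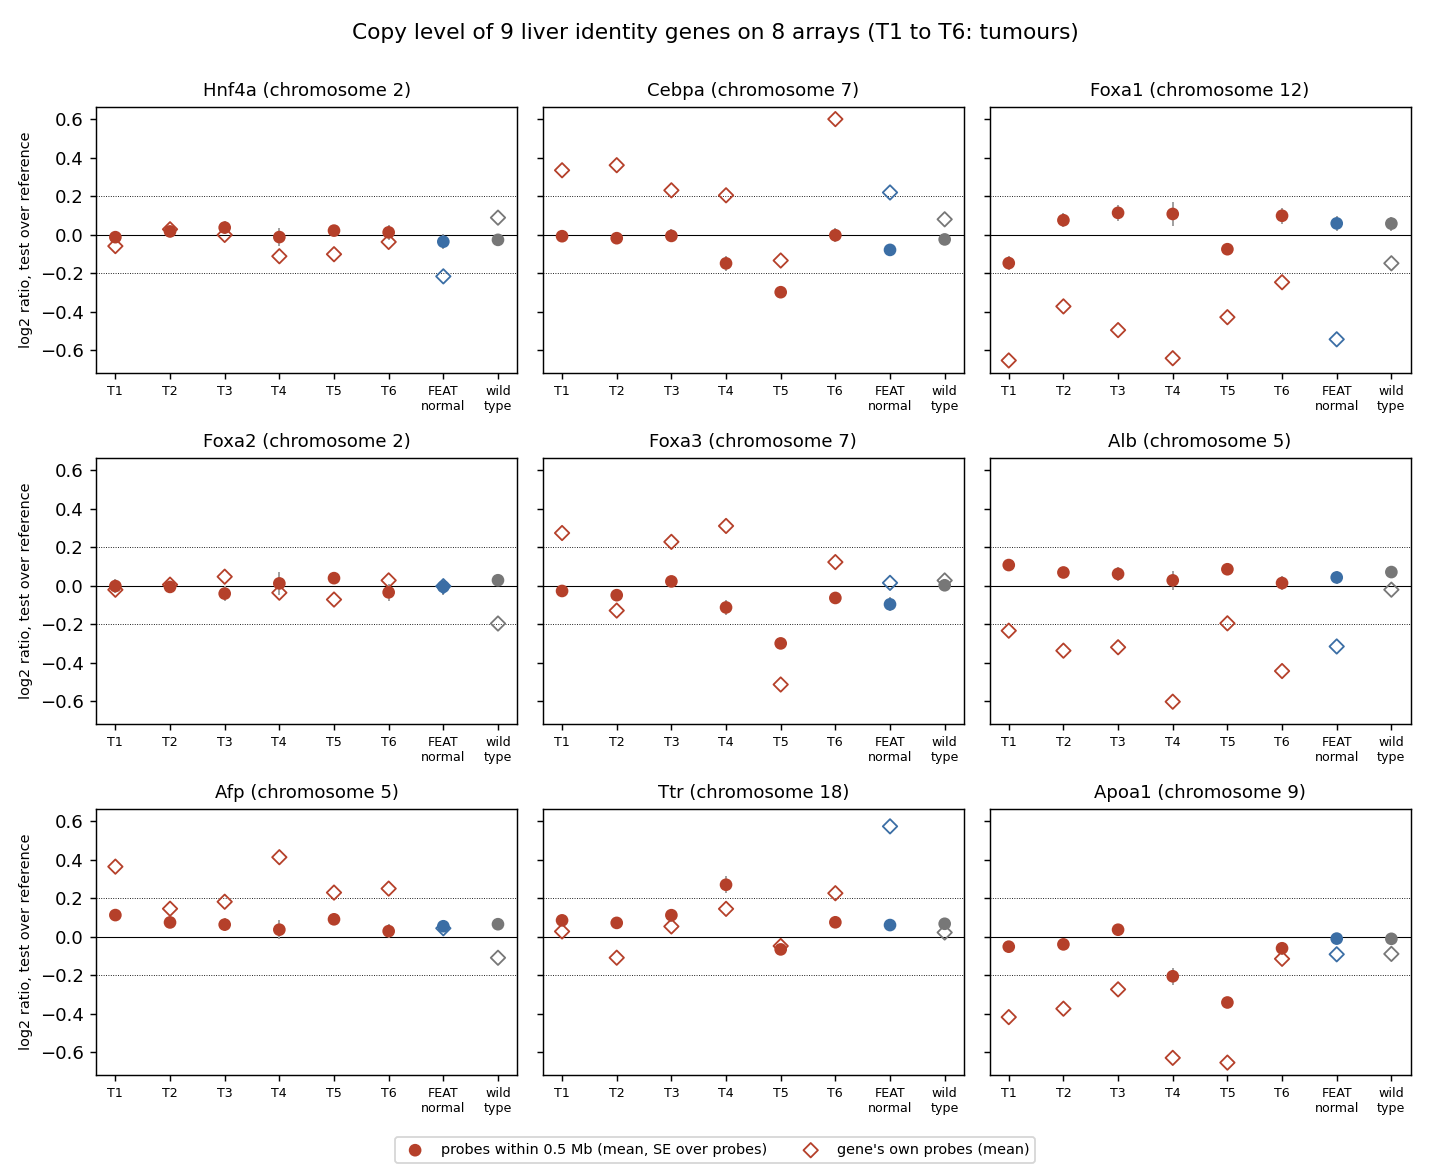
Log2 ratio of test over reference (vertical axes) of the 9 genes for tumours 1 to 6, FEAT normal liver and wild-type liver (horizontal axes). Filled circles are means of all probes within 0.5 Mb with the SE over probes, open diamonds are means of the gene's own probes, and dotted lines mark 0.2 in either direction. Filled circles reach -0.34 at Apoa1 and -0.30 at Cebpa and Foxa3 in tumour 5, and most others lie near 0, while the open diamonds scatter far more.

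To place these levels in larger changes, each array was divided into segments of like level, and a segment counted as gained from 0.2 upwards and as lost from -0.2 downwards. In such called segments of at least 1 tumour lay 3 of the 9 genes, all of them lost: Apoa1, Cebpa and Foxa3. Over all named genes, 23.9% were lost and 16.5% gained in at least 1 tumour. None of the 9 was gained, and none was called in a non-tumour liver, where 0.0773% of all genes were. Without tumour 5, 1 of the 9 remained called, Apoa1 in tumour 4. The called segments that held members had levels from -0.21 to -0.29, so that none remained at a threshold of 0.3.

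Cebpa and Foxa3 shared a single lost segment in tumour 5. It covered 43.9 Mb of chromosome 7, from position 3049177 to 46911191, with 4084 probes and a level of -0.28. The chromosome mean of tumour 5 was -0.26, so the pair moved with its chromosome. In the same tumour, Apoa1 lay in a lost segment of 103.9 Mb on chromosome 9, from position 19933161 to 123827707, with 10468 probes at -0.29. Lost segments of tumour 5 held 13.4% of all genes.

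In tumour 4 the loss at Apoa1 was smaller. It covered 5.38 Mb, from position 41506637 to 46890075, with 608 probes at -0.21, while the chromosome mean was -0.09. Apoa1 lay 0.70 Mb from its distal end. Lost segments of tumour 4 held 0.87% of all genes, and Apoa1 was among the 0.661% of genes lost in at least 2 tumours. Among the 4 member calls this was the closest to the threshold, on the array with the highest probe noise. Apoa1 was not called in tumour 4 after centring on the mode, GC correction, a penalty factor of 1 or 4 in the segmentation, or removal of the trend on probe brightness described below.

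Other segments stayed under the threshold. Foxa1 lay in a segment of tumour 1 at -0.17 and another of tumour 5 at -0.10, and Ttr lay in one segment of tumour 4 at 0.19 and another of tumour 5 at -0.10. The Ttr segments spanned all measured positions of chromosome 18, and the chromosome 12 segment of tumour 1 that held Foxa1 was 35.3 Mb long. At a threshold of 0.1, 5 of the 9 genes were called, Foxa1 and Ttr being added, against 71.3% of all genes in either direction. Alb, Afp, Hnf4a and Foxa2 were in no called segment of any tumour at 0.1, 0.2 or 0.3.

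**Figure D2:**
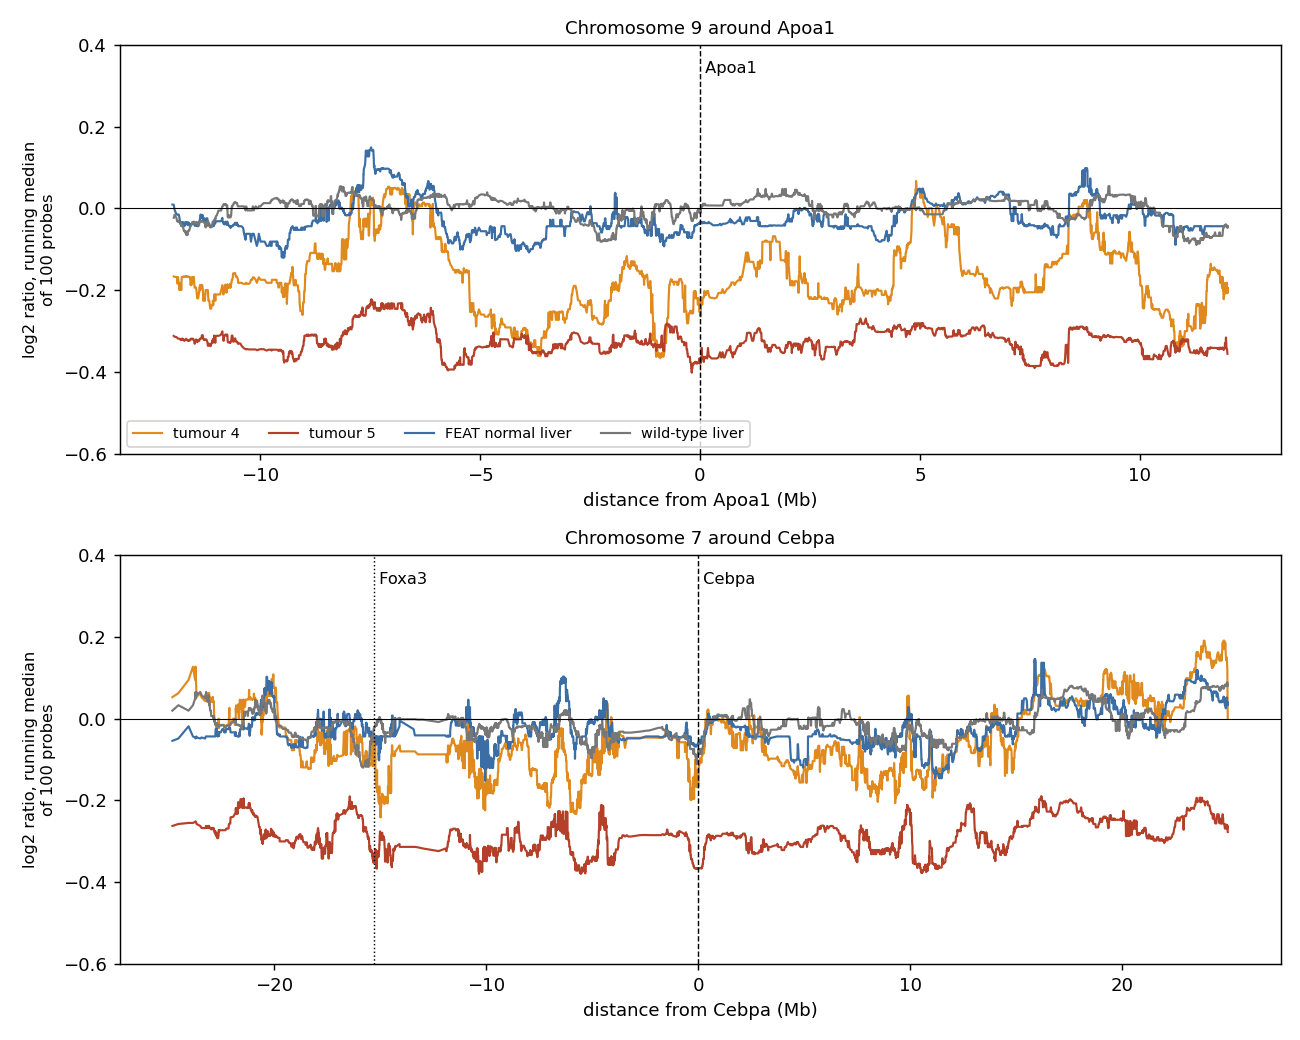
Running median of 100 probes of the log2 ratio (vertical axes) against the distance in Mb from Apoa1 on chromosome 9 and from Cebpa on chromosome 7 (horizontal axes), for tumours 4 and 5 and the FEAT normal and wild-type livers. Tumour 5 runs below the other arrays along most of both stretches, past Foxa3 as well as Cebpa, while tumour 4 is low around Apoa1 in an uneven way and both non-tumour livers stay near 0.

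**Figure D3:**
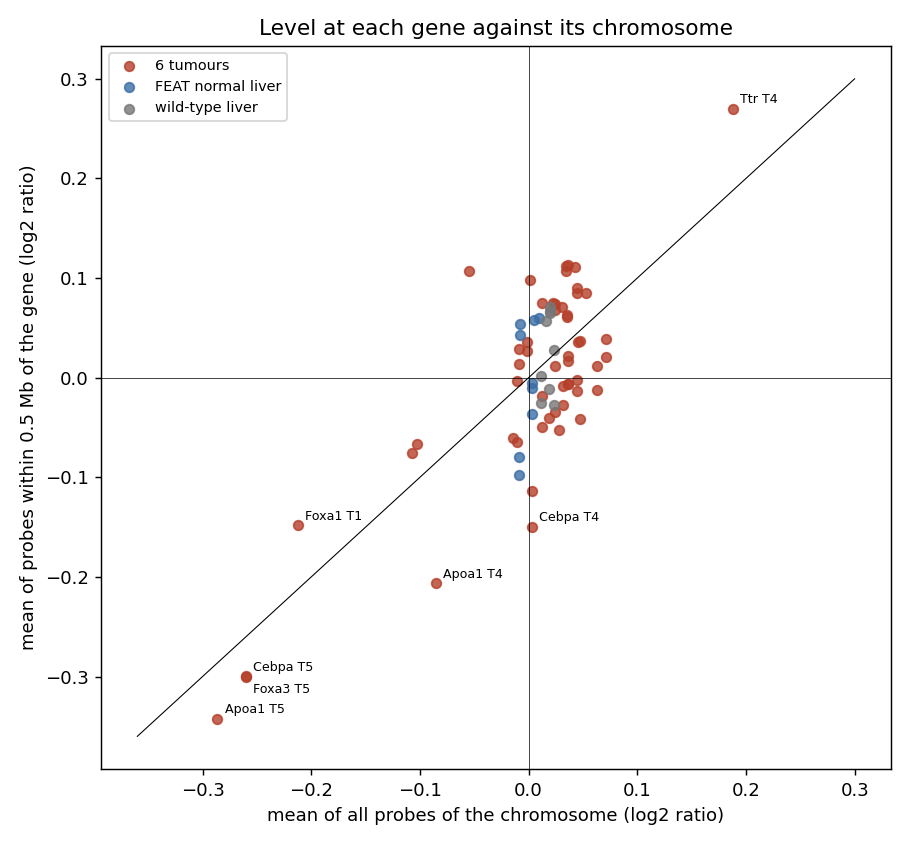
Mean log2 ratio of the probes within 0.5 Mb of each gene (vertical axis) against the mean of all probes of its chromosome (horizontal axis), with 1 point per gene and array and the diagonal of equal values. The points of tumour 5 below -0.2 lie near the diagonal, while Apoa1 in tumour 4 (-0.21 against -0.09) and Cebpa in tumour 4 (-0.15 against 0.0029) lie below it.

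The plot of window against chromosome levels shows how far each gene followed its chromosome. Foxa1 in tumour 1 stood at -0.15 with a chromosome mean of -0.21, and Ttr in tumour 4 at 0.27 with a chromosome mean of 0.19. In tumour 4, Cebpa stood at -0.15 on a chromosome with a mean of 0.0029 and Foxa1 at 0.11 on a chromosome with a mean of -0.05, and neither lay in a called segment. The Cebpa window was also below its chromosome in FEAT normal liver, at -0.08 against a mean of -0.01, and in wild-type liver, at -0.02 against 0.01. Of all arrays, only tumour 6 had it above. The Foxa1 window lay above its chromosome on every array, in wild-type liver at 0.06 against 0.02. These departures were thus not particular to tumour 4, although widest there.

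A limma fit over all genes then set the 6 tumours against the 2 non-tumour livers, to ask whether any of these genes differed in DNA level between tumour and non-tumour liver. None of the 9 passed by window level, by the mean of the gene's own probes or by that mean minus the flanking probes, and no gene of the array did (0% of 25868, 25450 and 25441 genes at an adjusted p under 0.05). Without adjustment, 35, 661 and 754 of all genes had p under 0.05, which is 0.135%, 2.6% and 2.96%. Of the members, 0, 2 and 2 did. The FEAT normal and wild-type livers have 1 array each and were fitted as 1 group, so a difference between them also counts as spread. Limma takes the spread of that group to be like that of the tumours.

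Window differences were small for all members. Apoa1 had the lowest at -0.10 (SE 0.09, 95% interval -0.29 to 0.09), with a tumour mean of -0.11 ± 0.14 (SD, n = 6) and a non-tumour mean of -0.01. Limma gave it an adjusted p of 0.998, and without tumour 5 the difference was -0.054. Hnf4a had the highest difference, 0.04 (SE 0.04, 95% interval -0.04 to 0.12). It was 0.014 with a window of 1 Mb and 0.00070 with medians of probes, and Ttr was then higher at 0.047 and 0.010. The other 7 differences lay between -0.04 (Foxa3) and 0.03 (Ttr), with adjusted p of 0.998 or higher in limma.

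At the level of the genes' own probes, the 2 members under 0.05 before adjustment were Afp and Apoa1. Apoa1 was not under it after removal of the brightness trend described below or with tumour 1, 2, 4 or 5 left out. Leaving out a non-tumour liver left 1 array on that side, and the members under it were then not the same 2. The difference of Afp was 0.22 without the wild-type liver and 0.37 without the FEAT normal liver. That of Apoa1 was -0.32 in both cases. Afp stood at 0.36, 0.15, 0.18, 0.41, 0.23 and 0.25 in tumours 1 to 6, against 0.04 in FEAT normal liver and -0.11 in wild-type liver. All tumours lay above both non-tumour livers, an order found in 2.93% of all genes. The difference was 0.30 (SE 0.10, 95% interval 0.08 to 0.52), and limma gave an adjusted p of 1.00. The window around Afp did not share this difference, as its own difference was 0.01 (SE 0.04).

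Apoa1 stood at -0.42, -0.37, -0.27, -0.63, -0.66 and -0.12 in tumours 1 to 6 by its own probes, against -0.09 in each of FEAT normal liver and wild-type liver. All tumours lay below both, an order found in 1.57% of all genes, although tumour 6 did so by a small margin. The difference was -0.32 (SE 0.14, 95% interval -0.64 to -0.01), with an adjusted p of 1.00 in limma. With the flanking probes subtracted, the differences were 0.30 (SE 0.09, 95% interval 0.09 to 0.51) for Afp and -0.23 (SE 0.10, 95% interval -0.45 to -0.01) for Apoa1, each with an adjusted p of 1.00 in limma, and for Apoa1 the groups then overlapped.

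The Afp difference rested largely on 1 probe. Afp probe 1 stood at 0.80, 0.45, 0.46, 0.71, 0.99 and 0.63 in tumours 1 to 6 (mean 0.67 ± 0.21, SD, n = 6), against -0.23 in FEAT normal liver and -0.14 in wild-type liver. The groups did not overlap, whereas at Afp probes 2 and 3 they did, with tumour means of 0.26 ± 0.39 and -0.14 ± 0.18 (SD, n = 6). Among the 19 member probes with a value on all arrays, the same order was found only at this probe and Hnf4a probe 2, against 2.15% of all probes. Limma over all single probes, a test added after the data were seen, gave Afp probe 1 a difference of 0.86 (SE 0.16, 95% interval 0.50 to 1.21, adjusted p = 1.00), and no probe of the array passed (0% of 225482).

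Apoa1 probe 3 split the arrays another way. It stood at -0.99, -0.91, -0.89, -1.22, -1.31 and -0.81 in tumours 1 to 6 (mean -1.02 ± 0.20, SD, n = 6) and at -0.92 in FEAT normal liver, against 0.08 in wild-type liver. All 7 livers of FEAT mice were low, tumour or not, and the single wild-type liver was near 0. The other Apoa1 probes did not share this split. Probe 1 averaged 0.19 ± 0.29 in the tumours (SD, n = 6) and stood at 0.68 in FEAT normal liver and 0.11 in wild-type liver, and probe 2 averaged -0.40 ± 0.17 in the tumours (SD, n = 6), against -0.04 in FEAT normal liver and -0.46 in wild-type liver. Tumours and FEAT normal liver thus lay further apart at probes 1 and 2 than at probe 3. The median of the 3 probes in place of their mean gave Apoa1 a difference of -0.42.

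The 7 FEAT-line livers were therefore also compared with the wild-type liver by limma over all probes, a comparison chosen after these values were seen and with 1 array on the wild-type side. All FEAT mice were also older than the wild-type mouse, so FEAT line and age cannot be told apart in such splits. Of all 225482 probes, 18 passed (0.00798%), none of them a member probe. All 7 FEAT-line livers lay below the wild-type liver at 6 of the 19 member probes, against 17.5% of all probes, and above it at 1, against 13.6%. The 6 were both Alb probes, Hnf4a probes 1 and 3, Foxa1 probe 2 and Apoa1 probe 3. They were in brightness classes 7 to 10 of the 10 described below. In class 10 the median of all probes was -0.19 to -0.63 on the FEAT-line arrays, against -0.07 in wild-type liver. The shares of all probes are therefore not matched for brightness. Minus the class median, Alb probe 1 and Foxa1 probe 2 lost this order and the others kept it.

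Alb illustrates how own probes and window can part. Its own probes stood at -0.23, -0.34, -0.32, -0.60, -0.20 and -0.44 across tumours 1 to 6 and at -0.32 in FEAT normal liver, against -0.02 in wild-type liver, while its window stood at or above 0.01 on every array. Both Alb probes had this pattern, with tumour means of -0.35 ± 0.16 and -0.37 ± 0.14 (SD, n = 6). The FEAT normal liver lay inside the range of the tumours. Limma gave the tumours minus the non-tumour livers a difference of -0.19 (SE 0.13, adjusted p = 1.00). It was -0.04 without the wild-type liver and -0.34 without the FEAT normal liver.

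The mean of the Foxa1 probes was also below the wild-type liver in all livers of FEAT mice, although probe 1 was not in tumour 6 (-0.09, against -0.23 in wild-type liver). By its own probes Foxa1 stood at -0.65, -0.37, -0.50, -0.64, -0.43 and -0.25 across tumours 1 to 6 and at -0.54 in FEAT normal liver, against -0.15 in wild-type liver. The FEAT normal liver again lay inside the range of the tumours. The Ttr probes were high in FEAT normal liver alone, at 0.50 and 0.65, with tumour means of 0.0046 ± 0.17 and 0.09 ± 0.10 (SD, n = 6) and wild-type values of -0.08 and 0.12. The only Cebpa probe stood between -0.13 and 0.60 in the tumours, lowest in tumour 5, at 0.22 in FEAT normal liver and at 0.08 in wild-type liver.

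At the remaining factors the tumours overlapped or lay between the non-tumour livers. Hnf4a stood between -0.11 and 0.03 in the tumours by its own probes, at -0.22 in FEAT normal liver and at 0.09 in wild-type liver. Foxa2 stood between -0.07 and 0.05 in the tumours, at -0.0029 in FEAT normal liver and at -0.20 in wild-type liver. All 7 FEAT-line livers thus lay below the wild-type liver at Hnf4a and above it at Foxa2. By own probes, 4 of the 9 genes had the order of Hnf4a (Alb, Foxa1 and, by a margin under 0.01, Apoa1 being the others), against 13.7% of all genes, and 2 had that of Foxa2 (with Afp), against 13%. These shares of all genes are likewise not matched for probe brightness. Foxa3 stood between -0.51 (tumour 5) and 0.31 in the tumours, at 0.01 in FEAT normal liver and at 0.03 in wild-type liver. Of these 8 probes, Hnf4a probe 4 and Foxa3 probe 2 had no value in tumour 5. Foxa3 probe 2 also had none in tumour 6, and on the array of FEAT normal liver both stood at a value that 6809 spots share, which may stand for a missing measurement. Without it, the FEAT normal liver had an own-probe level of -0.27 at Hnf4a and of 0.04 at Foxa3, then above the wild-type liver.

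**Figure D4:**
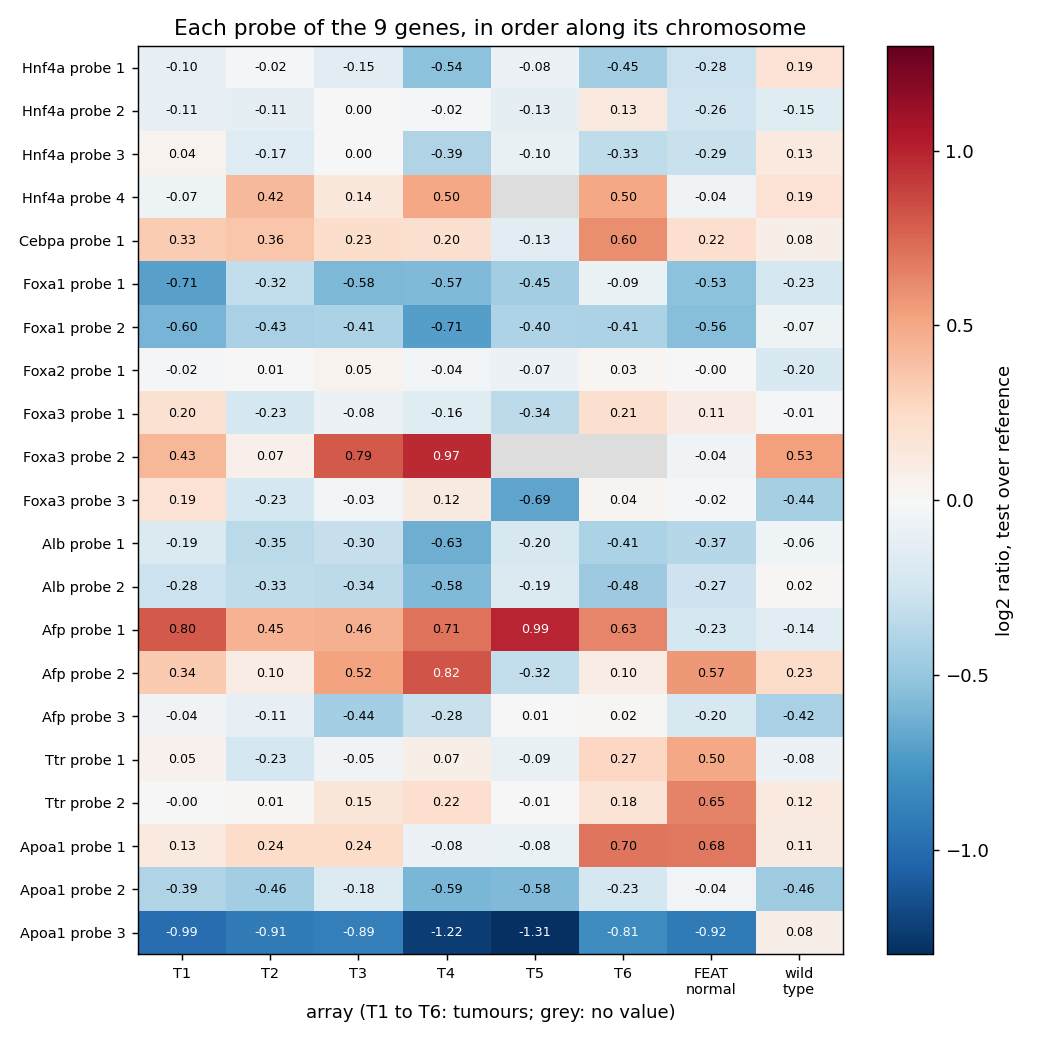
Log2 ratio of each of the 21 member probes (rows, in order along each chromosome) on the 8 arrays (columns, T1 to T6 for the tumours, then the FEAT normal and wild-type livers), with blue for values below 0, red for values above 0 and grey for no value. Apoa1 probe 3 is below -0.8 on all arrays except the wild-type liver, at 0.08, and Afp probe 1 is above 0.4 in the tumours and below 0 in both non-tumour livers.

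Probe values followed the brightness of the probe, and this moved with the values of single genes. Autosomal probes were put into 10 classes of equal size by their reference signal on the wild-type array, from 1 (dimmest) to 10 (brightest). In tumour 4 the median ratio was 0.75 in class 1 and -0.63 in class 10. It was 0.17 and -0.44 in FEAT normal liver, and 0.27 and -0.07 in wild-type liver. Alb probe 1, both Foxa1 probes and Apoa1 probe 3 were in class 10, and Afp probe 1 was in class 2. Minus the median of its class, Alb probe 1 stood between -0.16 and 0.11 in the tumours and at 0.07 in FEAT normal liver, against 0.01 in wild-type liver, so that its low values were shared by probes of like brightness. Alb probe 2, in class 7, stood between -0.42 and -0.16 in the tumours and at -0.21 in FEAT normal liver, against 0.05 in wild-type liver, on the same measure. Foxa1 probes 1 and 2 then stood between -0.48 and 0.43 and between -0.38 and 0.11 in the tumours, at -0.09 and -0.12 in FEAT normal liver and at -0.16 and -0.00073 in wild-type liver, and the groups overlapped.

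Apoa1 probe 3 and Afp probe 1 kept part of their departure. Minus the median of its class, Apoa1 probe 3 stood at -0.77, -0.72, -0.58, -0.60, -1.12 and -0.30 across tumours 1 to 6 and at -0.48 in FEAT normal liver, against 0.15 in wild-type liver. Afp probe 1 stood at 0.60, 0.28, 0.14, 0.20, 0.85 and 0.33 in tumours 1 to 6, against -0.51 in FEAT normal liver and -0.28 in wild-type liver. Neither order of groups was altered by the subtraction. With the trend removed from all probes, limma gave Afp probe 1 a difference of 0.77 (SE 0.19, adjusted p = 1.00) between tumours and non-tumour livers.

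**Figure D5:**
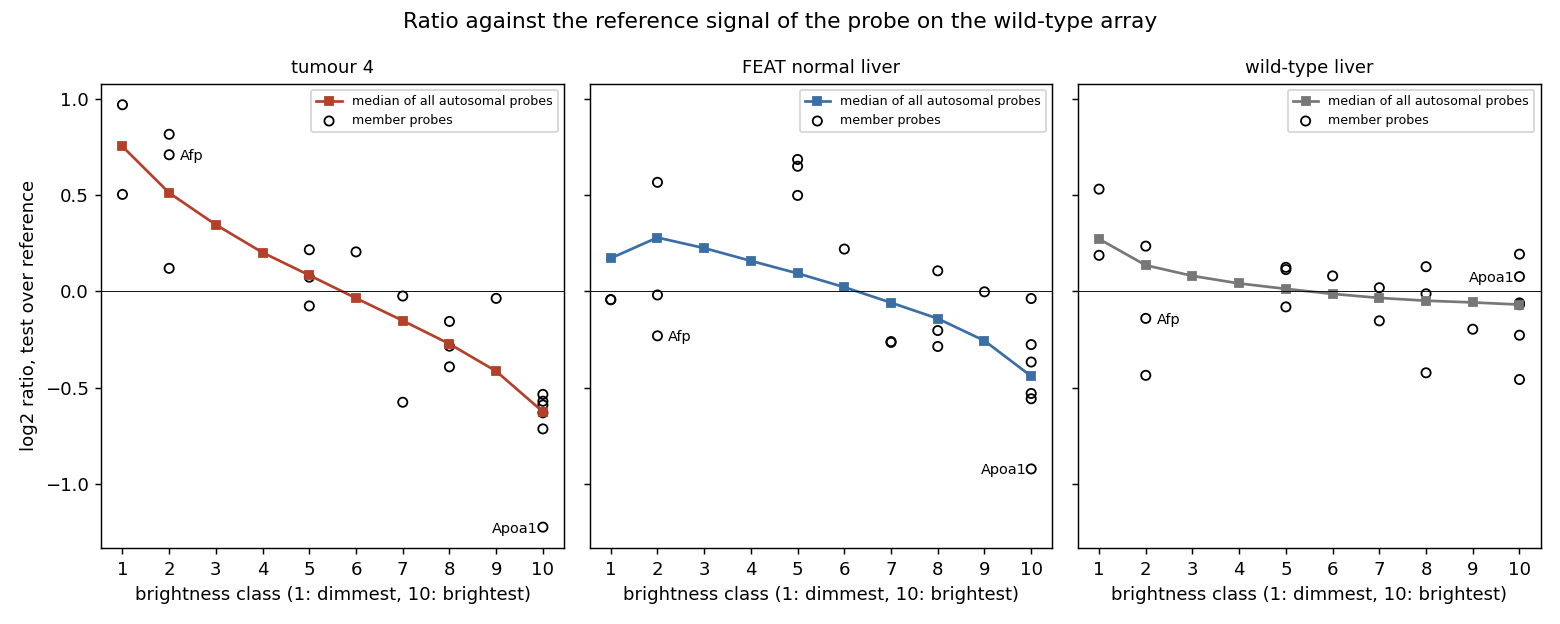
Log2 ratio (vertical axis) against the class of reference signal on the wild-type array (horizontal axis, 1 for the dimmest and 10 for the brightest), with medians of all autosomal probes as squares and member probes as circles, in tumour 4, FEAT normal liver and wild-type liver. The medians run from 0.75 to -0.63 across the classes in tumour 4 and from 0.27 to -0.07 in wild-type liver, and the labelled circles are Afp probe 1 and Apoa1 probe 3.

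Other genes of the same network were read from 3 wider lists with 65 of 68 genes measured. No gene of the lists passed limma by window level, as none on the array did. Of 20 other liver transcription factor genes, 4 lay in gained and 4 in lost segments of at least 1 tumour, against 0 and 3 of the 9 members and 16.5% and 23.9% of all genes. Of 27 other secreted liver protein genes, 6 were gained and 10 lost, and of 18 hepatocyte enzyme genes, 1 was gained and 3 lost. The median window difference was 0.02, -0.01 and 0.00 in these lists and -0.02 among the members, against 0.01 over all genes.

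Among the factors, Ppara, a nuclear receptor that drives fatty acid oxidation, had the highest window difference at 0.10, with levels of 0.27 and 0.23 in tumours 1 and 5, where it was called gained. Nr0b2, a repressor of bile acid synthesis, had the lowest at -0.07 and was called lost in tumour 1, with a window level of -0.22. Nr5a2, a nuclear receptor of bile acid and cholesterol metabolism, was called gained in tumours 4 and 5, with window levels of 0.18 and 0.31. Calls rest on the level of the whole segment, so a window level can lie under the threshold. Of the secreted proteins, Serpinc1, the antithrombin gene, had the highest difference at 0.10 and was called gained in tumour 5, with a window level of 0.39.

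Some listed genes sit beside members and share their windows. Apoc3, Apoa4 and Apoa5 form the apolipoprotein cluster with Apoa1, with probes 3.13, 11.6 and 39.6 kb from it, and all were called lost in tumours 4 and 5 with Apoa1. Apoa4 had the lowest window difference of the secreted proteins at -0.10. Afm, a vitamin E carrier of the albumin family, lies 15.5 kb from Afp and was not called, with window levels of 0.03 to 0.11 in the tumours, 0.05 in FEAT normal liver and 0.06 in wild-type liver. Apoe, 676 kb from Foxa3, was called lost in tumour 5, as Foxa3 was, and had a window level of -0.28 there.

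For each called member, the listed genes on other chromosomes with the most similar window levels over the 8 arrays were found by Pearson r. For Cebpa these were Onecut1 (r = 0.960) and Gys2 (r = 0.940), for Foxa3 Onecut1 (r = 0.976) and Trf (r = 0.961), and for Apoa1 Apoe (r = 0.915) and Bhmt (r = 0.914). All 5 genes had their lowest level in tumour 5, from -0.11 (Bhmt) to -0.28 (Apoe), as the 3 called members did.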

How the data were processed

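Test DNA (Cy3) and reference DNA (Cy5) were hybridised to Agilent 244A 2-colour arrays, per the labels. The authors analysed them in CGH analytics 3.4, per the design text, after extraction with version 9.1.3.1 of Agilent Feature Extraction (protocol CGH-v4_91), per the file headers of the only scanner output used here, that of wild-type liver. The deposited values are log2 ratios. On the wild-type array they equal the deposited log10 ratio of red over green with sign and base changed, plus 0.0014 (r = -1), so positive values mean more test DNA. The other 7 arrays are taken to run the same way from their labels. All 28 array pairs correlated positively (r = 0.264 to 0.760), but on every array bright probes also had lower ratios than dim ones. The correlation therefore cannot show which DNA carried which dye. As deposited, autosomal medians ran from -0.06 to 0.10. The deposited intensity values of the wild-type array were used for brightness, with its flags. Slides and scans of the other arrays were not analysed here.

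All 235406 table rows matched scanner spots. Repeated spots were averaged, and the autosomal median of an array was subtracted from its values. Outlying values were limited to 3 noise SDs around the running median of 5 probes, and chromosomes were divided by penalised least squares (penalty factor 2, at least 5 probes). limma 3.58.1 in R 4.3.3 was fitted over all genes or probes, with Benjamini-Hochberg adjustment at 0.05, and windows needed 10 probes. Both methods were tested on simulated data with independent noise and no brightness trend, so these tests do not show how the methods perform on the arrays themselves. Python 3.11.15, numpy 2.4.6, pandas 2.3.3, numba 0.67.0 and matplotlib 3.10.9 were used. Gene names are the array's, updated through a RefSeq table of assembly GRCm38.p6, where Alb is Alb1 on the array. Apob, Cps1 and Fbp1 were not matched. Members and lists were chosen with earlier results of these data known. Text names of wider lists follow a rule: highest and lowest window difference, genes within 1 Mb of a member, genes called in at least 2 tumours, and the 2 most similar genes for each called member. The enzyme genes with the highest and lowest difference are not reported here. Alternatives covered centring, GC correction (window of 500 kb), dim probes, window size, medians, penalty, probe minimum, threshold and each array left out. Removal of the brightness trend, removal of repeated values and the tests of single probes were added after the data were seen.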

Additional observations from a re-analysis of the deposited data

Results flagged for a closer look

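Of 48 sets of 6 tumour values examined over the 9 genes, 1 held a tumour far from the rest, where chance gives about 2.4. It was the level of the Apoa1 probes minus their flanking probes in tumour 6, at -0.056, against a tumour median of -0.33. Its gap to the nearest tumour was 0.691 of the whole range.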

How the results depend on the processing

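The number of members in called segments was 3, and it was 5 at a threshold of 0.1 and 0 at 0.3. It ranged from 1 to 3 with each tumour left out, being 1 without tumour 5. Under the other settings it was 3 or 4, and Cebpa, Foxa3 and Apoa1 in tumour 5 were called in each of them. Ttr in tumour 4 was added by centring on the mode and by a penalty factor of 1, Foxa1 in tumour 1 by GC correction and by a penalty factor of 4, and Apoa1 in tumour 1 by a penalty factor of 1. The window level of Apoa1 in tumour 4 was -0.12 after centring on the mode and after GC correction, against -0.21. No member passed limma under any setting. With the wild-type liver left out, 13 genes of the array, none a member, passed by own probes and 13 by own probes minus flanks, against 0 and 0. The own-probe difference of Afp ranged from 0.22 to 0.46 over 16 settings and that of Apoa1 from -0.42 to -0.27. That of Alb ranged from -0.34 without FEAT normal liver to -0.04 without wild-type liver. Apoa1 minus its flanks was not under an unadjusted limma p of 0.05 with the 0.25 Mb window or after removal of the brightness trend. Nor was it with tumour 1, 2, 3, 4 or 5 left out. After removal of the trend 2 members were under it, so a member other than Afp and Apoa1 had come in, against 970 of 25441 genes. Leaving out a non-tumour liver left 1 array on that side, and the members under it were then not the same. Over 17 settings the difference minus flanks ranged from 0.21 to 0.47 for Afp, from -0.31 to -0.18 for Apoa1 and from -0.33 to -0.06 for Alb. The window difference of Apoa1 ranged from -0.14 to -0.054 (without tumour 5) and that of Hnf4a from 0.00070 to 0.054, and Ttr exceeded Hnf4a with a window of 1 Mb, with medians of probes and without tumour 5. While 222 member differences under other settings kept their sign, 15 did not, all of them window differences near 0, and the cause was not tested. With a window of 1 Mb these were Alb (-0.0099), Afp (-0.0084) and Foxa2 (0.038). With medians of probes they were Alb (-0.0044) and Afp (-0.0093), and after removal of the brightness trend Alb (-0.0011). With each array left out, the window difference ranged from -0.010 to 0.018 for Alb, from -0.0011 to 0.016 for Afp, from -0.0084 to 0.059 for Ttr, from -0.056 to 0.015 for Cebpa, from -0.047 to 0.0057 for Foxa1 and from -0.091 to 0.0084 for Foxa3. The sign turned without tumour 1 for Alb, Afp and Foxa1, without tumour 4 for Ttr, without tumour 5 for Alb, Cebpa and Foxa3, without FEAT normal liver for Alb and without wild-type liver for Foxa3. No paired analysis was possible because the labels tie no tumour to a non-tumour liver and the replicate numbers only name arrays. Probe noise and 1 to 4 probes a gene limit what can be seen at single genes, and each non-tumour liver is 1 array.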
